A study of Mus musculus with 6 samples.

Results

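The mitochondrial genome of the mouse encodes 37 genes, and all of them were measured: 13 messenger RNA genes, 2 ribosomal RNA genes and 22 transfer RNA genes. They are every gene that the deposited table places on the chromosome named MT, 37 of 52143 gene identifiers. Their RNA was followed in 6 libraries of sorted mouse rod photoreceptors, 3 labelled Jun knockdown and 3 controls. Newborn retinas of the first group received, by in vivo electroporation on postnatal day 0, a plasmid for a short hairpin RNA (shRNA) against Jun, a bZIP transcription factor, and those of the second group received the pLKO.1 plasmid with a scrambled shRNA, each at 2.5 µg/µl in 0.4 µl. Both groups also received EGFP under the Nrl promoter (1.5 µg/µl), which is active in rods, and EGFP-positive cells were sorted on postnatal day 10. No strain, animal or litter is named for any library, and 1 shRNA construct was used. Statistical tests therefore measure the spread between these libraries, which may be technical.

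Mitochondrial DNA is a small circle that is transcribed from both strands into long precursors. Transfer RNAs sit between most of the other genes, and their excision releases the messengers and the ribosomal RNAs. The messengers encode core subunits of the respiratory chain and ATP synthase, the ribosomal RNAs build the organelle's own ribosome, and the transfer RNAs serve translation within it, while every protein of the transcription, processing and translation machinery is encoded in the nucleus. Rods are known for a dense cluster of mitochondria in the inner segment.

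Other properties of the libraries moved with the group. The libraries labelled Jun knockdown held 13211300 to 13998400 counts and the controls 32150100 to 105801000, so depth and group cannot be told apart. Jun itself stood at 1.79, 17.4 and 19.1 CPM (counts scaled to library size with TMM factors) in the labelled libraries, against 6.40, 5.79 and 7.08 CPM in the controls (log2 fold change 0.99, SE 1.44, edgeR adjusted p = 0.764), and was lower in 1 of 3, so the group is called by its label only. Rod markers summed to between 15130 and 16370 CPM in labelled libraries and between 95480 and 118600 CPM in controls, with 10 of 12 lower in every labelled library. Over all 12815 tested genes, 15.7% were lower and 12.6% higher in every labelled library. Counts of list members, here and below, are to be read beside these shares, and 1 of 8 is near them. Gnat1 and Sag, which encode the rod transducin alpha subunit and arrestin, had log2 fold changes of -4.11 (SE 0.29) and -3.13 (SE 0.15), both past the adjusted p of 0.05. The microglial and macrophage list summed to between 1.63 and 5.19 CPM in labelled libraries and between 739 and 1007 CPM in controls, with 6 of 8 lower in every labelled library. The Müller glia list summed to between 273 and 346 CPM in labelled libraries against 1706 to 2009 CPM in controls, with 4 of 8 lower, and the cone list to between 2316 and 3030 CPM in labelled libraries against 2828 to 4803 CPM in controls, with 1 of 8 lower and 1 higher. The bipolar list, with 4 of 8 higher and 2 lower in every labelled library, summed to between 1111 and 1774 CPM in labelled libraries and between 1348 and 1758 CPM in controls. The amacrine and ganglion list, with 1 of 8 lower, summed to between 14.7 and 66.3 CPM in labelled libraries and between 13.1 and 91.1 CPM in controls, and the vascular and blood list, with 2 of 8 higher and 3 lower, to between 21.1 and 69.1 CPM in labelled libraries against 163 to 299 CPM in controls. Of all 7 lists, Sncg (a ganglion cell marker) and Hba-a1 (a globin gene) were at 0 in every labelled library, and no marker was at 0 in every control. The part of these differences in the mitochondrial values was not tested, and in sorted bulk cells fewer cells of a type and less RNA per cell cannot be told apart.

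Most of the 22 transfer RNA genes gave few counts, and 4 on the light strand gave most of the total. These were mt-Tq (MT:3772-3842), mt-Ts1 (MT:6870-6938), mt-Te (MT:14071-14139) and mt-Tp (MT:15356-15422), all on the minus strand in GENCODE vM21 coordinates (GRCm38). Below they precede the 4 genes with the highest fitted log2 fold changes, all on the plus strand: mt-Tv (MT:1025-1093), mt-Td (MT:6942-7011), mt-Th (MT:11546-11612) and mt-Tm (MT:3845-3913). Each sequence is the whole gene in its own direction, and the capitals mark the anticodon.
mt-Tq: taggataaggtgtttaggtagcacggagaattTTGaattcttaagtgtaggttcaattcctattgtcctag
mt-Ts1: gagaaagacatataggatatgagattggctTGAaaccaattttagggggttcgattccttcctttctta
mt-Te: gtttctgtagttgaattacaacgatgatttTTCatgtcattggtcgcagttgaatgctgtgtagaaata
mt-Tp: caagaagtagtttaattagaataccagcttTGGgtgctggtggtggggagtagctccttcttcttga
mt-Tv: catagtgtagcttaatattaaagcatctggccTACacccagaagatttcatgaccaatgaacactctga
mt-Td: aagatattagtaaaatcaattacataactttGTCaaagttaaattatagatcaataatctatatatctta
mt-Th: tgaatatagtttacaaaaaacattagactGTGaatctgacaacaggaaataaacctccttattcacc
mt-Tm: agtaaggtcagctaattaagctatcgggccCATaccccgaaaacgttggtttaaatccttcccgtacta

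Some members share sequence with each other or with the nuclear genome. The overlaps of mt-Atp8 (MT:7766-7969) with mt-Atp6 (MT:7927-8607), 43 bases, and of mt-Nd4l (MT:9877-10173) with mt-Nd4 (MT:10167-11544), 7 bases, are the longest on 1 strand, and each pair is known to be translated from 1 bicistronic messenger. The last or first 60 bases of each gene are shown, with the shared bases in capitals.
mt-Atp8 end: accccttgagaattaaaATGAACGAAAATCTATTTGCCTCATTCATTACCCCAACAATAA
mt-Atp6 start: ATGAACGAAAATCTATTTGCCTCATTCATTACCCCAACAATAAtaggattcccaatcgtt
mt-Nd4l end: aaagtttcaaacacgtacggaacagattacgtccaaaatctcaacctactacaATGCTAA
mt-Nd4 start: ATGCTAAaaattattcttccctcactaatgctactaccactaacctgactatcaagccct

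Of the nuclear genes in the deposited table, 11 matched 9 members at 95% identity or more over at least 100 bases. On chromosome 1, minus strand, Gm28438 (1:24612775-24613119) matched mt-Nd3 (MT:9459-9806) at 99.7% over 345 bases, with the substitution T3C. Gm29216 (1:24615706-24616197) matched mt-Co1 (MT:5328-6872) at 99.8% over 483 bases, with A1066T. Positions count from 1 at the first base of the mitochondrial gene, whose base comes first. The 60-base windows that hold the differing base, in capitals, show how little separates each pair.
mt-Nd3 window: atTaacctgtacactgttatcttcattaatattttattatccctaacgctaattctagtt
Gm28438 window: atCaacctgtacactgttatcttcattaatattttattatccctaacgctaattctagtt
mt-Co1 window: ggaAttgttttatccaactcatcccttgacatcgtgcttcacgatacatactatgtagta
Gm29216 window: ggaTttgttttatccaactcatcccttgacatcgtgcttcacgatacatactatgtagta

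The share of each library held by the mitochondrial genes overlapped between the groups. Together they took 3.09%, 3.17% and 3.86% of the counts in libraries labelled Jun knockdown, against 5.34%, 2.49% and 5.19% in controls. The second control lay below every labelled library and the other controls lay above them, so the groups overlapped. The means were 3.37 ± 0.422% and 4.34 ± 1.60% (SD, n = 3 each), and the two-sided exact permutation test gave p = 0.4. The values rest on 408759 to 540299 mitochondrial counts per labelled library and on 1667730 to 2630110 per control.

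Within the mitochondrial counts, messenger RNA made up less, and ribosomal and transfer RNA more, of every labelled library than of any control. Messengers took 93.2%, 89.9% and 92.5% of mitochondrial counts in labelled libraries, against 97.2%, 97.6% and 96.9% in controls. Ribosomal RNA took 6.43%, 9.66% and 7.13% in labelled libraries, against 2.76%, 2.20% and 2.85% in controls, or 7.74 ± 1.70% and 2.60 ± 0.353% (SD, n = 3 each). The groups did not overlap in either class, and the second labelled library and the second control stood furthest apart. Transfer RNA took 0.325%, 0.436% and 0.322% in labelled libraries, against 0.0355%, 0.178% and 0.213% in controls. Here the first control was far below the others, and again no control reached a labelled library. With 3 libraries against 3, the exact permutation test cannot go below 0.1, which each of these classes reached (two-sided p = 0.1; 0.125 after Benjamini-Hochberg adjustment over the 5 shares and ratios tested). The 3 shares make up the whole, so the messenger and ribosomal shares are nearly 1 contrast, not separate results. In summed level both classes overlapped. Ribosomal RNA stood at 1768, 2276 and 2494 CPM in labelled libraries and 1844.5, 635 and 1692 CPM in controls. Messengers stood at 25664, 21181 and 32360 CPM in labelled libraries and 65062, 28205 and 57559 CPM in controls. The widest 95% Wilson interval of a class share was 0.182 percentage points. Intervals cover counting error only, and PCR reads are not independent molecules. Long noncoding RNA of the nuclear genome also took a higher share of all counts, 5.47%, 6.71% and 5.47% in labelled libraries against 2.37%, 2.06% and 2.41% in controls, and its part in these shares was not tested.

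**Figure D1:**
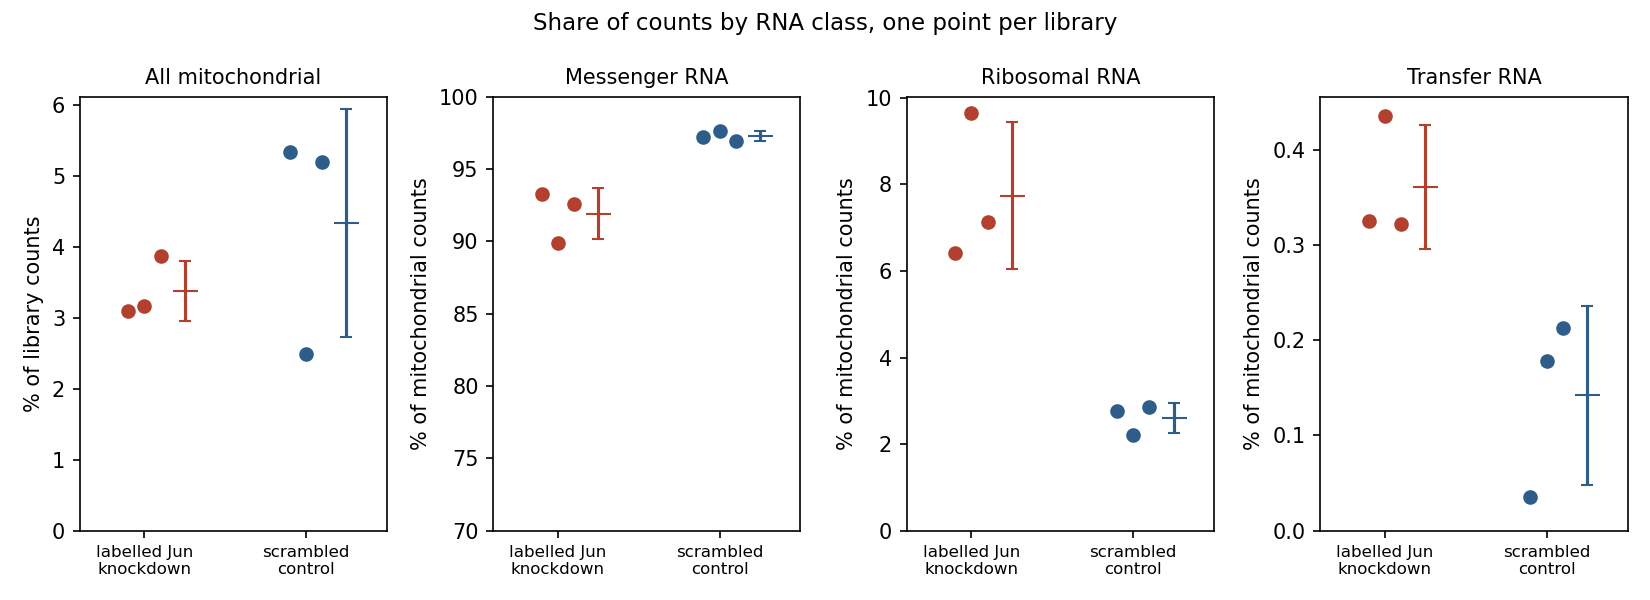
Share of counts in each library, with 1 point per library and the mean ± SD (n = 3) beside the points. The left panel gives all mitochondrial genes as a percent of the library, where the groups overlap, and the others give messenger, ribosomal and transfer RNA as a percent of mitochondrial counts, where they do not. The messenger axis does not start at 0, and its labelled libraries lie at 89.9% to 93.2% beside controls at 96.9% to 97.6%.

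Messenger RNA levels per gene were mostly lower, and 1 of the 13 passed the test over all genes. In edgeR's quasi-likelihood fit, 1.35% of 12815 tested genes were lower and 0.32% higher in labelled libraries at an adjusted p of 0.05, 1.67% in either direction. Among the 30 members tested, mt-Co1 fell and none was higher. At the same threshold DESeq2 called no messenger (0 also at an unadjusted p of 0.05), beside 6.96% of its 16114 tested genes lower and 5.17% higher. Of the 13 messengers, 12 had a negative and 1 a positive log2 fold change, with a median of -0.91 beside -0.12 over all tested genes. At an unadjusted p of 0.05, 6 of 13 messengers were lower and none higher, beside 10.7% of all genes lower and 6.13% higher. In normalised level, 4 of the 13 were lower in every labelled library than in every control, and 15.7% of all tested genes were. mt-Nd1 was among the 4 only by 2101 against 2128 CPM. Its transcript counts were 1.06 to 1.10 times its gene counts in labelled libraries and 0.977 times in control 2. Its place among the 4 thus rests on the gene counts.

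**Figure D2:**
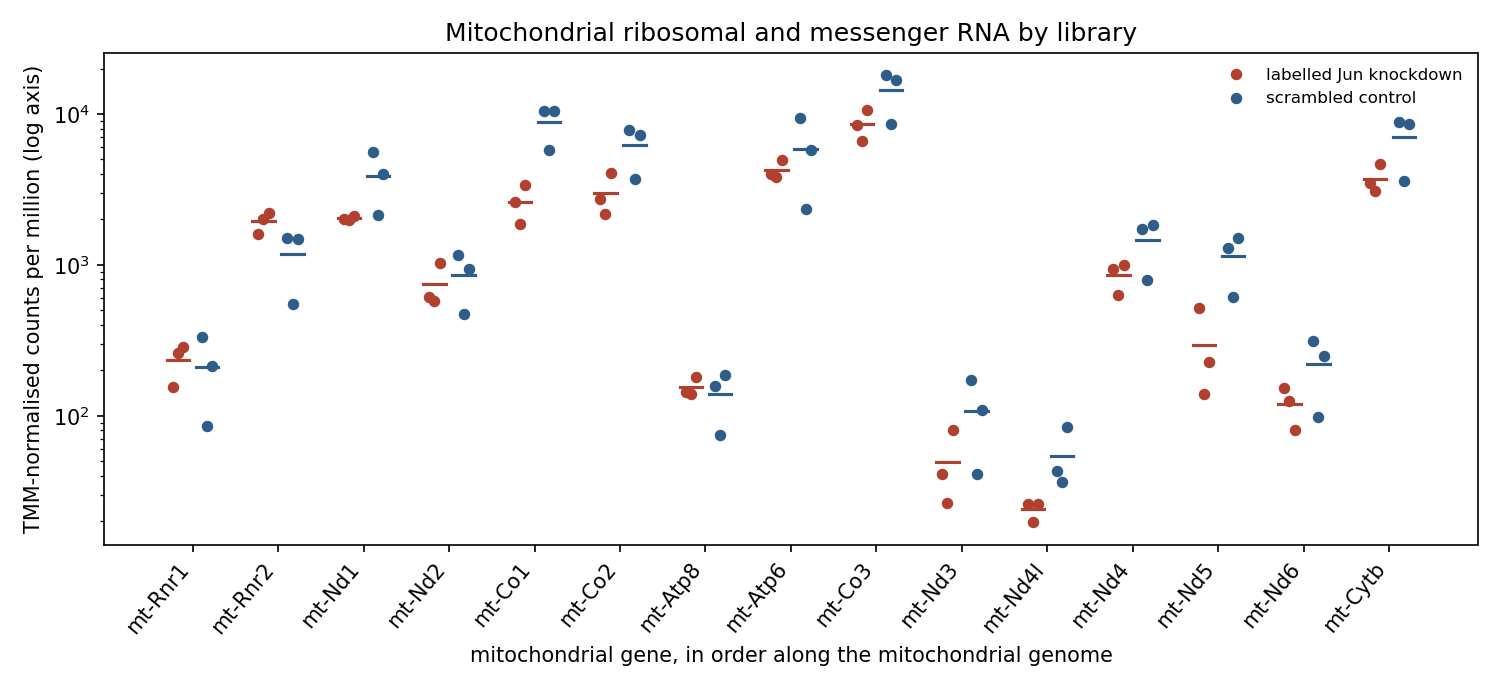
TMM-normalised CPM on a log axis for the 2 ribosomal and 13 messenger RNA genes, with 1 point per library and a line at the mean of 3. The labelled libraries of mt-Co1 reach at most 3380 CPM, below its lowest control at 5797 CPM, whereas those of mt-Rnr2 start at 1613 CPM, above its highest control at 1513 CPM.

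Complex IV, cytochrome c oxidase, passes electrons to oxygen, and its 3 mitochondrial subunits gave most messenger counts. mt-Co1 (ENSMUSG00000064351), the catalytic subunit that binds the heme and copper centre, stood at 2599, 1852 and 3380 CPM in labelled libraries, against 10457, 5797 and 10399 CPM in controls. Every labelled library lay below every control. The log2 fold change was -1.77 (SE 0.30, edgeR adjusted p = 0.0272). It kept the negative sign in all 18 alternative fits and passed in 9 of them. The call was lost when the labelled library 1 (adjusted p = 0.0730) or 2 (0.0610) or the control 1 (0.118) or 3 (0.114) was left out, and it was kept without labelled library 3 or control 2. It was also lost with upper quartile scaling (0.0596), library totals (0.0519), mitochondrial totals (0.0711), DESeq2 (0.204) and limma-voom (0.547).

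mt-Co2, the subunit that receives electrons from cytochrome c, stood at 2733, 2168 and 4054 CPM in labelled libraries, against 7841, 3683 and 7216 CPM in the controls (log2 fold change -1.07, SE 0.33, edgeR adjusted p = 0.145). The third labelled library lay above the second control. mt-Co3, the remaining core subunit, had the highest level of all members, at 8411, 6626 and 10632 CPM in labelled libraries against 18023, 8548 and 16698 CPM in controls (-0.75, SE 0.28, adjusted p = 0.226). Its groups also overlapped at the second control.

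The 3 subunits of complex IV did not keep the same proportions. The ratio of mt-Co1 to mt-Co2 counts was 0.951, 0.854 and 0.834 in labelled libraries, against 1.33, 1.57 and 1.44 in controls. The ratio of mt-Co1 to mt-Co3 was 0.309, 0.279 and 0.318 in labelled libraries, against 0.580, 0.678 and 0.623 in controls. Neither ratio overlapped between groups; both were chosen after the values were seen and are given without a test. As a share of mitochondrial counts, mt-Co1 took 9.44%, 7.86% and 9.67% in labelled libraries, against 15.6%, 20.1% and 17.5% in controls. mt-Co2 took 9.93%, 9.20% and 11.6% in labelled libraries against 11.7%, 12.7% and 12.2% in controls. These mt-Co2 shares did not overlap by gene counts, but by transcript counts they did. mt-Co3 overlapped, at 29.7 ± 1.37% in labelled libraries and 28.2 ± 1.33% in controls (SD, n = 3 each).

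Complex I, NADH dehydrogenase, feeds electrons from NADH into the chain, and 7 of its core subunits are mitochondrial. mt-Nd5, one of the proton-pumping subunits, stood at 518, 140 and 226 CPM in labelled libraries, against 1295, 610 and 1514 CPM in controls. Every labelled library was below every control, but the first was well above the other labelled ones, and the log2 fold change of -1.95 (SE 0.55) did not pass (edgeR adjusted p = 0.112). mt-Nd1, which lies at the junction of the membrane and matrix arms, was nearly the same in the 3 labelled libraries at 2024, 1972 and 2101 CPM. The controls stood at 5601, 2128 and 3977 CPM, and the second of them was only just above the labelled ones (-0.94, SE 0.33, adjusted p = 0.191).

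The other complex I subunits did not pass. mt-Nd2, also a proton-pumping subunit, averaged 742.5 ± 255 CPM in labelled libraries and 855.2 ± 349 CPM in the controls (log2 fold change -0.20), and mt-Nd4, another of them, 855.0 ± 200 and 1450 ± 571 CPM (-0.76; SD, n = 3 each). mt-Nd4l, the short neighbour of mt-Nd4, stood at 26.0, 19.7 and 26.2 CPM in labelled libraries and was just higher in every control, at 42.8, 36.5 and 83.8 CPM (-1.18, SE 0.97, adjusted p = 0.571). mt-Nd6, the only messenger gene on the light strand, overlapped at 153, 125 and 80.7 CPM in labelled libraries against 313, 98.1 and 248 CPM in controls (-0.88, SE 0.60). mt-Nd3 (-1.13, SE 0.85) is taken up with its nuclear copy.

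mt-Cytb, the core of complex III, which passes electrons from ubiquinol to cytochrome c, stood at 3482, 3077 and 4625 CPM in labelled libraries, against 8831, 3590 and 8540 CPM in controls. The second control lay among the labelled libraries, and the difference did not pass (log2 fold change -0.91, SE 0.33, edgeR adjusted p = 0.212). Its share of mitochondrial counts was close to constant, at 12.7%, 13.1% and 13.2% in labelled libraries and 13.2%, 12.4% and 14.4% in controls.

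Neither gene of the ATP synthase pair passed, and together they held a larger share of messenger counts in every labelled library. mt-Atp6, which forms the proton channel, stood at 3985, 3831 and 4935 CPM in labelled libraries, against 9454, 2330 and 5813 CPM in the controls (log2 fold change -0.46, SE 0.41, edgeR adjusted p = 0.602). mt-Atp8, a small subunit of the same membrane part, stood at 145, 140 and 180 CPM in labelled libraries against 158, 75.0 and 188 CPM in controls (0.14, SE 0.57, adjusted p = 0.920). Both overlapped. Their joint share was 16.1%, 18.7% and 15.8% of messenger counts in the labelled libraries, against 14.8%, 8.53% and 10.4% in controls. By the same measure complexes I, III and IV each overlapped between the groups. The ratio of mt-Atp8 to mt-Atp6 counts was 0.0363, 0.0364 and 0.0366 in labelled libraries, against 0.0167, 0.0322 and 0.0323 in controls, where the first library stood apart. This ratio was 1 of 19 ratios and percentages compared, and no test is given. Counts between genes that overlap, as shown above, may be split differently from library to library.

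Per kilobase of gene, levels ran in a similar order in both groups, with mt-Co3 first and mt-Nd3 and mt-Nd4l last. mt-Co3 averaged 10914 ± 2560 CPM per kilobase in labelled libraries and 18397 ± 6544 in controls (SD, n = 3 each), and mt-Nd4l 80.7 ± 12.5 and 183 ± 86.4. mt-Atp6 came next, followed by mt-Co2, in labelled libraries, at 6241 ± 878 and 4364 ± 1415 CPM per kilobase, while in controls mt-Co2 at 9132 ± 3278 and mt-Atp6 at 8613 ± 5231 differed by less than their spread. mt-Co1 came directly after mt-Nd1 in labelled libraries, at 1689 ± 495 and 2124 ± 67.4, and directly before it in controls, at 5750 ± 1731 for mt-Co1, with mt-Nd1 at 4077 ± 1816. In both groups those neighbours lay within their spread. Over the 37 members, Spearman coefficients between libraries were 0.957 to 0.978 within groups and 0.920 to 0.961 between them. Genes are not independent replicates, and these coefficients describe only how alike the profiles were.

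mt-Rnr2, the large ribosomal RNA, was the only one of the 15 longer members at a higher level in every labelled library. It stood at 1613, 2015 and 2210 CPM in labelled libraries, against 1513, 550 and 1479 CPM in controls, and 12.6% of all tested genes were also higher in every labelled library. The gap was narrow at the first library of each group, and the log2 fold change of 0.72 (SE 0.39) did not pass (edgeR adjusted p = 0.377). mt-Rnr1, the small ribosomal RNA, overlapped at 156, 261 and 284 CPM in labelled libraries and 332, 84.9 and 213 CPM in controls (0.16, SE 0.59, adjusted p = 0.915). As shares of mitochondrial counts, however, both were higher in every labelled library. mt-Rnr2 took 5.86%, 8.55% and 6.32% in labelled libraries, against 2.26%, 1.90% and 2.49% in controls, and mt-Rnr1 0.566%, 1.11% and 0.812% in labelled libraries against 0.496%, 0.294% and 0.359% in the controls. The ratio of mt-Rnr2 to mt-Rnr1 was 10.3, 7.71 and 7.79 in labelled libraries, against 4.56, 6.47 and 6.94 in controls. It was also 1 of 19 ratios and percentages compared, and no test is given.

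Scaling each library by its mitochondrial total turns these shares into a test across all genes, and the picture of the classes differed from that of the levels. The median log2 fold change over all tested genes moved by 0.71 under this scaling, and 0.289% of all genes were then higher and 0.179% lower at an adjusted p of 0.05. mt-Rnr2 passed as higher (log2 fold change 1.64, edgeR adjusted p = 0.0497), and mt-Co1 no longer passed (-0.98, adjusted p = 0.0711). Of the messengers, 7 were then negative and 6 positive, with a median of -0.04, and mt-Nd2, mt-Atp6, mt-Co3, mt-Nd4 and mt-Nd6 changed sign. Messengers made up 89.9% to 97.6% of the mitochondrial totals, so a messenger median near 0 was largely built into this scaling. In shares, 3 of 13 messengers (mt-Co1, mt-Co2 and mt-Nd5) were lower in every labelled library and 2 (mt-Nd2 and mt-Atp8) were higher. By the same measure, counts per mitochondrial count, 8.51% of all tested genes were lower and 20.3% higher. The mt-Co2 shares of labelled library 3 and control 1 were close, at 11.6% and 11.7%. Its transcript counts were 1.08 times its gene counts in the former and 0.885 times in the latter. By transcript counts these shares changed order, so the mt-Co2 split rests on the gene counts. mt-Nd2 took 2.23%, 2.45% and 2.96% in labelled libraries, against 1.73%, 1.64% and 1.57% in controls. mt-Nd5 took 1.88%, 0.596% and 0.646% in labelled libraries against 1.94%, 2.11% and 2.55% in the controls, so its first labelled library was close to the lowest control. Exact permutation tests of the 29 member shares with at least 10 counts on average could not go below 0.1.

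**Figure D3:**
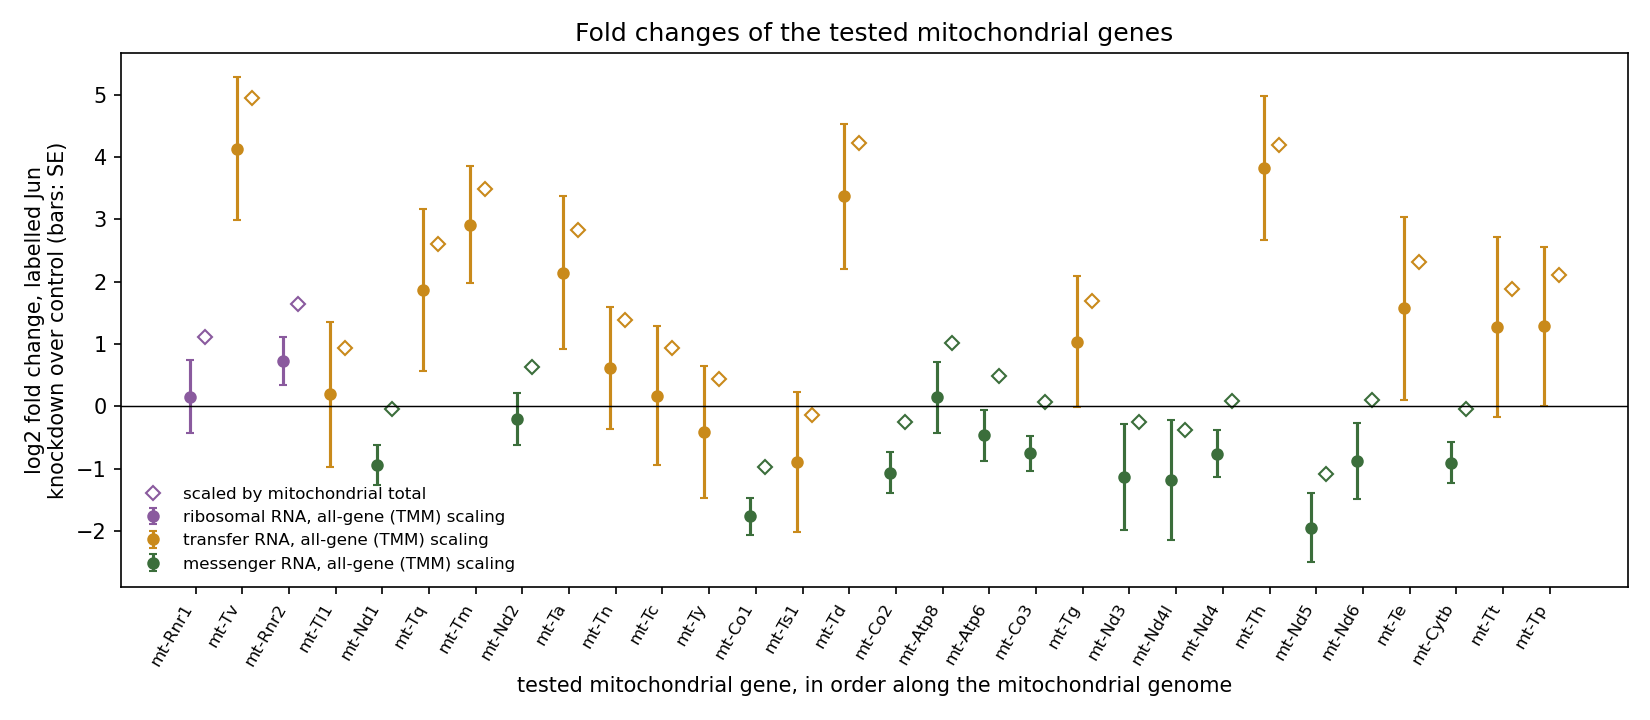
log2 fold change of the 30 tested members, labelled Jun knockdown over control, in order along the mitochondrial genome. Filled points with bars are the TMM-scaled fit with its SE, open diamonds the fit scaled by mitochondrial totals, and colours mark the RNA class. mt-Co1 at -1.77 is the only member past the threshold in the TMM-scaled fit, and 4 transfer RNAs at 2.91 to 4.13 had few counts in controls.

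Transfer RNA genes gave 1330 to 1841 counts in labelled libraries and 875 to 4684 in controls, or 101.6 ± 11.5 and 67.2 ± 53.2 CPM (SD, n = 3 each), which overlapped. Of the 22 genes, 15 held a higher share of mitochondrial counts in every labelled library and none a lower one. Among the 15 tested genes, 12 did so, beside 20.3% of all tested genes higher and 8.51% lower in counts per mitochondrial count. In level 10 of 22 were higher in every labelled library. Of the 15 tested 8 were, beside 12.6% of all tested genes. These 8 were mt-Tq, mt-Ta, mt-Te and mt-Tp, and mt-Tv, mt-Tm, mt-Td and mt-Th. The last 4 were tested only because they passed the count filter in labelled libraries. They are also among the 12, so part of both counts was built in and neither is a measured excess. Of the 8 tested light-strand genes, none selected in that way, 4 were higher in level and 6 in share. Of mt-Tl1, mt-Tg and mt-Tt, none was higher in level, and mt-Tg and mt-Tt were higher in share. No transfer RNA passed edgeR's test. The 4 with an unadjusted p under 0.05, mt-Tv, mt-Tm, mt-Td and mt-Th, were those that entered the test through the labelled libraries alone, so their higher level is no result of the test, and the 3 that DESeq2 called higher (mt-Tv, mt-Td and mt-Tm) are among them. Mature transfer RNAs carry no poly(A) tail, whereas the low-input kit starts cDNA at such tails. The molecules behind these counts were not measured.

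Transfer RNA genes lie on both strands. The 14 heavy-strand genes summed to 10.7, 6.05 and 8.81 CPM in labelled libraries, against 1.29, 2.36 and 4.56 CPM in controls, with no overlap. The 8 light-strand genes summed to 78.8, 96.7 and 104 CPM in labelled libraries, against 22.5, 49.1 and 122 CPM in controls, where the third control exceeded every labelled library. The ratio of light to heavy counts was 7.35, 16.0 and 11.8 in labelled libraries, against 17.4, 20.8 and 26.8 in controls. The split by strand was made with these values known, and no test is given.

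**Figure D4:**
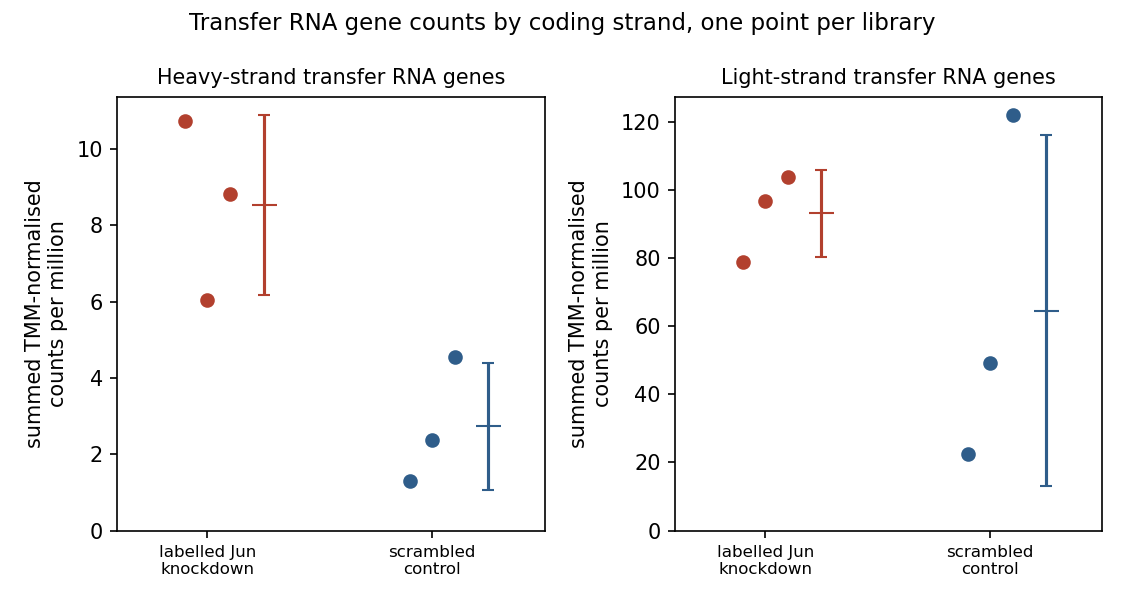
Summed TMM-normalised CPM of the heavy-strand (left) and light-strand (right) transfer RNA genes, with 1 point per library and the mean ± SD (n = 3). Heavy-strand sums of labelled libraries start at 6.05 CPM, above the highest control at 4.56 CPM, and the light-strand sums overlap.

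Among the light-strand genes, mt-Ts1, mt-Tq, mt-Te and mt-Tp held 80.0%, 88.2% and 84.2% of transfer RNA counts in labelled libraries and 82.5%, 89.9% and 91.5% in controls. mt-Ts1, for serine, held 21.9%, 22.4% and 18.8% of transfer RNA counts in labelled libraries, against 49.8%, 61.4% and 59.4% in controls. mt-Tq, for glutamine, held 28.4%, 39.6% and 38.0% in labelled libraries, against 7.75%, 15.0% and 16.0% in controls. So mt-Ts1 led in each control and mt-Tq in each labelled library. In level, mt-Tq stood at 25.4, 40.7 and 42.8 CPM in labelled libraries against 1.84, 7.70 and 20.3 CPM in the controls (log2 fold change 1.87, SE 1.30, edgeR adjusted p = 0.501), and mt-Ts1 at 19.6, 23.0 and 21.1 CPM in labelled libraries against 11.8, 31.6 and 75.1 CPM in the controls (-0.90, SE 1.13, adjusted p = 0.725). mt-Ts1 lies on the opposite strand at the end of mt-Co1, overlapping it by 3 bases. No step that marks strand is stated for these libraries, so reads from the 2 strands cannot be told apart.

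mt-Tp, for proline, stood at 20.2, 21.0 and 22.4 CPM in labelled libraries, against 5.50, 5.31 and 15.3 CPM in controls. mt-Te, for glutamate, stood at 6.35, 5.92 and 8.48 CPM in labelled libraries against 0.416, 1.63 and 4.95 CPM in the controls, and mt-Ta, for alanine, at 3.69, 3.18 and 4.84 CPM in labelled libraries against 0.526, 0.779 and 1.34 CPM in the controls. All 3 were higher in every labelled library, with log2 fold changes of 1.28 (SE 1.28), 1.57 (SE 1.47) and 2.15 (SE 1.23) that did not pass. mt-Tn, mt-Tc and mt-Ty overlapped in level, at up to 2.72 CPM.

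On the heavy strand, mt-Tv, which lies between the 2 ribosomal RNA genes and serves valine, had 20, 20 and 17 counts in labelled libraries and 1, 3 and 4 in the deeper controls. That is 1.35, 1.11 and 1.13 CPM in labelled libraries against 0.0276, 0.0337 and 0.141 CPM in the controls (log2 fold change 4.13, SE 1.14, edgeR adjusted p = 0.104). mt-Td had 26, 19 and 19 counts in labelled libraries against 2, 5 and 8 in controls (3.37, SE 1.16), mt-Tm 15, 16 and 12 in labelled libraries against 3, 14 and 3 in the controls (2.91, SE 0.94), and mt-Th 6, 9 and 12 in labelled libraries against 0, 6 and 1 in the controls (3.82, SE 1.16). These 4 passed the filter on low counts (0.433 unscaled CPM in 3 libraries) through the labelled libraries alone, so a difference between the groups was built into their being tested. The filter left out 7 transfer RNA genes: mt-Tf, mt-Ti, mt-Tw, mt-Tk, mt-Tr, mt-Ts2 and mt-Tl2, with 4 to 24 counts over the labelled libraries and 0 to 26 over the controls. mt-Tk, for lysine, had 7 counts in labelled libraries and 0 in controls, where a count of 0 allows up to 3. The remaining heavy-strand genes, mt-Tl1, mt-Tg and mt-Tt, overlapped in level.

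Counts assigned to nuclear copies of mitochondrial genes came to 5.26%, 5.53% and 6.55% of mitochondrial counts in labelled libraries and to 4.19%, 5.52% and 4.94% in controls. Gm28438, the copy of mt-Nd3 shown above, held 71.2%, 82.8% and 69.6% of the pair's counts in labelled libraries, against 80.5%, 78.4% and 73.4% in controls. The copy thus took more counts than the mitochondrial gene in all 6 libraries. mt-Nd3 alone stood at 40.9, 26.4 and 80.3 CPM in labelled libraries against 173, 41.2 and 110 CPM in controls, and the pair at 142, 154 and 264 CPM in labelled libraries against 886, 191 and 413 CPM in the controls. Both measures overlapped.

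Gm29216, the copy of the last part of mt-Co1, held 28.7%, 23.8% and 19.9% of the pair in labelled libraries, against 13.6%, 17.7% and 16.8% in controls. With copies added to their genes, mt-Co1 still fell (log2 fold change -1.62, edgeR adjusted p = 0.0252). Gm28437 (1:24613189-24613971), identical to mt-Co3 over 783 bases, held 1.12%, 4.95% and 4.12% of its pair in labelled libraries against 2.36%, 2.11% and 2.80% in controls. Gm10925 (1:24613974-24614651), identical to mt-Atp6 over 678 bases, was chosen after its values were seen. It held 4.81%, 6.12% and 14.0% of its pair in labelled libraries, against 0.125%, 0.233% and 0.429% in controls. Reads from identical stretches cannot be assigned to 1 of the genes, and such counts are uncertain.

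**Figure D5:**
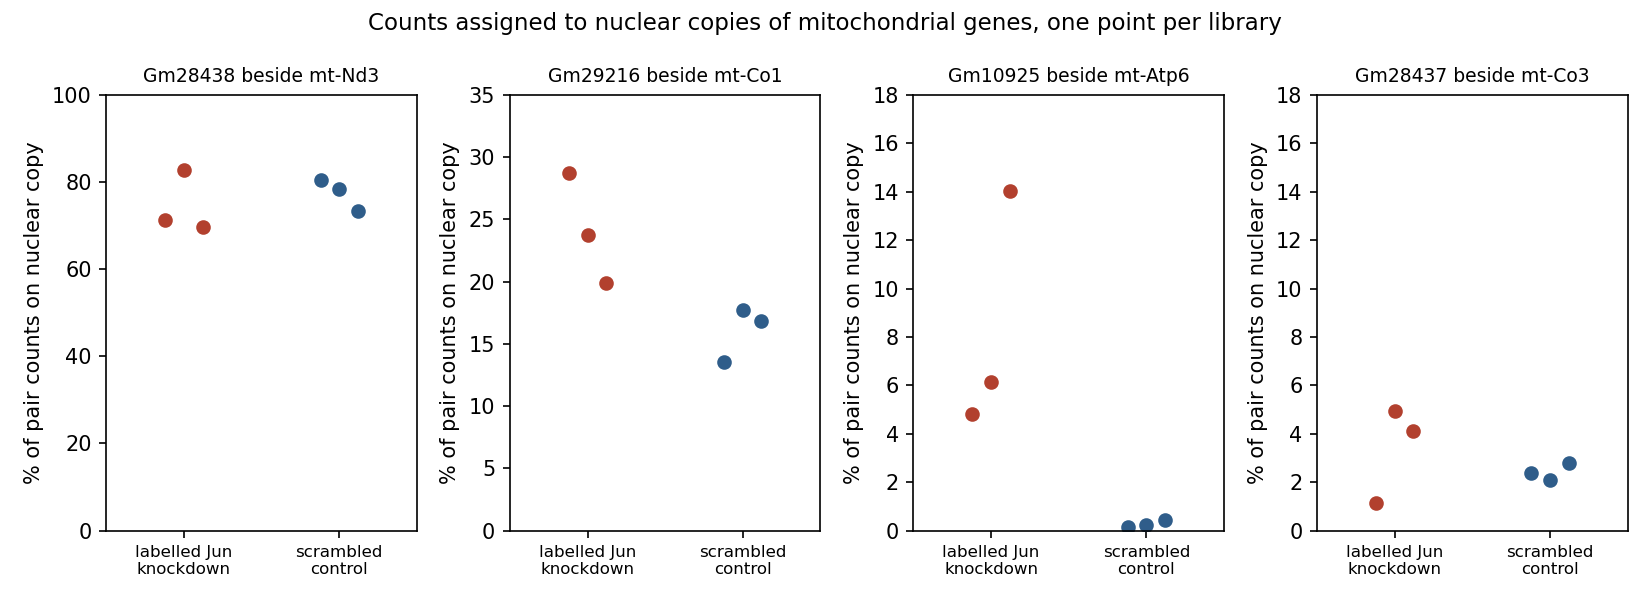
Percent of the counts of a mitochondrial gene and its nuclear copy that was assigned to the copy, with 1 point per library. The vertical scales differ: Gm28438 beside mt-Nd3 lies at 69.6% to 82.8% over all libraries, and Gm10925 beside mt-Atp6 at 4.81% to 14.0% in labelled libraries and at most 0.429% in controls.

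The mitochondrial messengers work beside nuclear subunits in the same complexes. The log2 ratio of summed mitochondrial messenger counts to the counts of 81 nuclear respiratory chain and ATP synthase genes was -0.95, -0.60 and -0.69 in labelled libraries, against 0.33, -0.50 and 0.07 in controls. Every labelled library was below every control, the second control by little (two-sided exact permutation p = 0.1, the smallest possible; 0.125 after adjustment). The nuclear genes took 5.57%, 4.33% and 5.77% of all counts in labelled libraries. In controls they took 4.13%, 3.43% and 4.77%, so the groups overlapped. Of 77 nuclear subunits tested, 4 fell and none was higher, beside 1.35% of all genes lower and 0.32% higher. Their median log2 fold change was -0.23, beside -0.12 over all tested genes. With upper quartiles, library totals and mitochondrial totals their median was 0.15, 0.25 and 0.49, beside 0.27, 0.38 and 0.60 over all genes. At an unadjusted p of 0.05 by edgeR, 3 were higher and 15 lower, beside 6.13% and 10.7% of all genes. DESeq2 called 0 of 78 higher and 4 lower, beside 5.17% and 6.96% of all genes. Atp5b, the catalytic ATP synthase subunit, stood at 354, 343 and 259 CPM in labelled libraries against 1863, 2070 and 1110 CPM in the control group (-2.40, SE 0.34, edgeR adjusted p = 0.0133). Sdhd, a membrane anchor of complex II, the complex with no mitochondrial subunit, stood at 45.0, 47.7 and 45.1 CPM in labelled libraries against 649, 411 and 573 CPM in the controls (-3.57, SE 0.45, adjusted p = 0.00785). Uqcrc1 (-4.67) and Atp5a1 (-3.55) also passed, but both have further copies on patch sequences in the table and are uncertain.

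The nuclear genes that express mitochondrial DNA showed few calls. None of 14 tested genes of mitochondrial transcription and replication passed (median -0.07), none of 27 for RNA processing and stability (-0.81) and none of 78 mitochondrial ribosomal proteins (-0.52). At an unadjusted p of 0.05 these lists held 1 higher and 2 lower, 0 higher and 3 lower, and 1 higher and 10 lower, beside 6.13% of all genes higher and 10.7% lower. The lower shares are near that of all genes. DESeq2 called 1 higher and 2 lower in the first, 3 lower in the second and 0 in the third, beside 5.17% of all its tested genes higher and 6.96% lower. Their members with the smallest p by edgeR included Mterf2, a factor of the transcription terminator family (-5.07, SE 1.56, adjusted p = 0.145), Elac2, which cuts the 3' ends of transfer RNAs (-5.25, SE 1.83, adjusted p = 0.194), and Mrpl49, a protein of the large ribosomal subunit (-1.29, SE 0.33, adjusted p = 0.0802). Elac2 was near the floor, at 0.195, 0 and 0.233 CPM in labelled libraries against 4.01, 11.6 and 2.16 CPM in controls. Mterf2 stood at 7.32, 0.420 and 0.275 CPM in labelled libraries against 141, 54.1 and 74.4 CPM in controls. Its list held 7 positive and 7 negative log2 fold changes. Polg, of the same list, stood at 77.7, 39.7 and 0.845 CPM in labelled libraries against 2.38, 0.383 and 0.503 CPM in controls (5.17, SE 1.91, edgeR adjusted p = 0.216). Ssbp1 stood at 399, 314 and 634 CPM in labelled libraries against 266, 222 and 226 CPM in controls (0.91, SE 0.42, adjusted p = 0.311).

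Of 24 tested translation factors and transfer RNA synthetases, 1 fell (median -1.20). This was Mtif3, an initiation factor, at 0.180, 0.296 and 0.425 CPM in labelled libraries against 112, 128 and 81.0 CPM in the controls (log2 fold change -8.41, SE 1.17, edgeR adjusted p = 0.0117). Lars2, the leucine synthetase, did not pass (-3.54, SE 1.26, adjusted p = 0.201). At an unadjusted p of 0.05 by edgeR this list held 0 higher and 5 lower. DESeq2 called 1 of 25 higher and 4 lower. Of 22 genes chosen as measures of mitochondrial mass, 3 fell and none was higher (median -1.49): the ADP/ATP carriers Slc25a4 (-2.09, SE 0.29, adjusted p = 0.0117) and Slc25a5 (-2.57, SE 0.46, adjusted p = 0.0335), and Vdac1, the outer membrane channel (-3.64, SE 0.70, adjusted p = 0.0431). At an unadjusted p of 0.05 by edgeR the mass list held 1 higher and 12 lower, and DESeq2 called 0 higher and 5 lower. Over all genes 6.13% were higher and 10.7% lower at that unadjusted p, and DESeq2 called 5.17% higher and 6.96% lower. None of 8 regulators of mitochondrial biogenesis passed (median -0.68). At an unadjusted p of 0.05 that list held 0 in either direction, and DESeq2 called 0. Over the 7 lists, 8 of 250 tested genes were lower, beside 1.35% of all genes. These calls held in between 5 (Vdac1) and 13 (Sdhd) of the alternatives, and under scaling by mitochondrial totals none passed. Leaving out a library left 5 calls without labelled library 1, and 0, 2 and 1 without controls 1, 2 and 3.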

How the data were processed

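The 6 libraries were made from full-length cDNA (SMART-seq v4) with Nextera XT, per the labels' protocols. The deposited tables hold estimated counts of each gene, estimated counts of each transcript, and normalised values. The submitters' processing notes name Trimmomatic 0.39, kallisto 0.44.0 and edgeR 3.28.1, without role. No build is named there; the coordinates of all 37 members equal those of GENCODE vM21 (GRCm38). The deposited table labelled CPM held a signal whose columns summed to between 1250540 and 2385208, so it served in alternatives only. All sample columns were used (0 left out).

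Estimated counts were rounded to whole numbers. After filterByExpr and TMM scaling, edgeR 4.0.16 (R 4.3.3) fitted a quasi-likelihood model with group as its only term, and p-values were adjusted by Benjamini-Hochberg over 12815 genes with a threshold of 0.05. SE is the log2 fold change over the square root of F. Shares were compared by exact two-sided permutation tests (scipy 1.17.1). Of the members, 30 had whole transcript counts in every library (tolerance 1e-06), and transcript over gene counts ran from 0.769 to 1.27. Nuclear copies were found with blastn 2.17.0 on GENCODE vM21 transcripts. The fit was tested on simulated counts with a fixed dispersion. Changes were placed only in genes with more counts than many transfer RNA genes had, so that test does not cover those genes.

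The members and lists were chosen with earlier results of these data known. The rule for named genes took every member, the 4 genes of each nuclear list with the smallest p, Jun, rod markers including Gnat1 and Sag, and the 3 nuclear copies with the most counts. An item named by that rule is not reported here. Same-numbered libraries did not deviate together. Alternatives were other scalings, no filter, DESeq2 1.42.0, limma-voom and limma-trend (limma 3.58.1), a replicate block, leaving out each library and, chosen after seeing the data, adding nuclear copies and using transcript counts.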

Additional observations from a re-analysis of the deposited data

How the results depend on the processing

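Calls depended on scaling, filter, tool and library. Members past the threshold numbered 1 by the main test, 0 with upper quartile scaling, library totals or limma-voom, 6 without the filter (all messengers, lower), 3 higher by DESeq2 (mt-Tv, mt-Td and mt-Tm), 3 lower by limma-trend with a pseudocount of 0.5 and 3 with 2, and 0 to 2 when a library was left out. Scaling by mitochondrial totals called 1 other member. Over all genes 214 passed, against 60 with mitochondrial totals, 737 without the filter, 1955 by DESeq2, 442 by limma-voom, 615 and 553 by limma-trend, and 36 to 110 with a library left out. The split of 41 higher and 173 lower became 55 and 89 with upper quartiles, 68 and 80 with library totals, and 37 and 23 with mitochondrial totals. The median of all genes moved by 0.15, 0.39, 0.50 and 0.71 under median of ratios, upper quartiles, library totals and mitochondrial totals. The nuclear lists held 8 calls, against 0 with mitochondrial totals, 18 without the filter, 20 by DESeq2, 21 and 21 by limma-trend, and 0 to 7 with a library left out.

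Signs turned for members that had not passed. mt-Nd2 was at 0.17 with upper quartiles, 0.28 with library totals, 0.63 with mitochondrial totals and 0.19 by limma-voom. mt-Atp6 was at 0.045, 0.49 and 0.67 under the last 3 of these. mt-Ty was at 0.071, 0.43 and 0.054 under them and at 0.012 with the replicate block. mt-Co3, mt-Nd4 and mt-Nd6 were at 0.074, 0.085 and 0.10 with mitochondrial totals, and mt-Tl1 at -0.029 and -0.0056 by limma-trend. With a library left out, mt-Rnr1 ranged from -0.21 to 0.61, mt-Tl1 from -0.65 to 0.92, mt-Nd2 from -0.53 to 0.034, mt-Tc from -0.066 to 0.67, mt-Atp8 from -0.16 to 0.43 and mt-Atp6 from -0.84 to 0.022. Scaling by mitochondrial totals, which messengers mostly make up, moves the messengers as a class toward 0. The cause of the other shifts was not tested.

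Replicate numbers did not pair the libraries: same-number correlations of deviations were 0.00344, 0.0347 and -0.00982. A replicate block left 1 member, 97 genes and 6 list genes past the threshold, and its sign-flip tests cannot go below 0.25. The 5 shares and ratios kept their direction under every alternative run. The filter left 7 transfer RNAs untested, and no alternative varied depth.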
